A study of Homo sapiens with 2 samples.

Results

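YAP1, WWTR1 (the gene of TAZ), TEAD1, TEAD4 and 6 of their target genes were followed in PC-3 cells with and without knockdown of SHISA2. The 10 genes are the transcriptional output layer of the Hippo pathway: the coactivators YAP and TAZ, the DNA-binding factors TEAD1 and TEAD4, and the targets CCN1, CCN2, ANKRD1, AMOTL2, AXL and LATS2. They were chosen by name, though with earlier results of these data known. Every probe set annotated to exactly 1 of them was taken, 22 probe sets in all. The annotation gives 19775 genes a probe set of their own, and 12931 of these were measured, that is, had a signal above the floor in at least 1 array. All 22 probe sets of the 10 genes were measured.

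In most epithelial cells the Hippo kinases phosphorylate YAP and TAZ, which are then held in the cytoplasm or degraded. When the kinases are quiet, for example in spread cells at low density or on a stiff matrix, YAP and TAZ enter the nucleus, bind TEAD factors and switch on genes of growth, matrix and adhesion. Several targets feed back on the pathway: LATS2 is itself a Hippo kinase, and AMOTL2 is a scaffold that binds YAP and TAZ. Since YAP and TAZ are regulated mainly as proteins, the transcripts of their targets are the usual readout of their activity.

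The series compares PC-3, a human prostate cancer cell line from a bone metastasis, transfected with an shRNA expression vector that is named siCONTROL (sample siCONTROL_PC-3) or siSHISA2 (sample siSHISA2_PC-3). SHISA2 encodes a protein of the Shisa family, which keeps Frizzled and FGF receptors from leaving the endoplasmic reticulum. There was 1 array per group, and with 1 vector in each arm an effect of losing SHISA2 and an effect of that vector cannot be told apart. The hairpin sequences, the time after transfection, cell density and the number of cultures behind each RNA are not given in the sources used here. No p-value can be computed, and no difference below was compared with variation between cultures.

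The arrays show the knockdown at the transcript level: the only SHISA2 probe set read 3536 in control cells and 1506 in knockdown cells, or 42.6% of control. The epithelial markers KRT8 (2283 in control cells and 1990 in knockdown cells), KRT18 (18340 and 17533) and EPCAM (353.6 and 313.1) were measured, while both probe sets of the adhesion molecule CDH1 and both of KRT19 were under the floor in both arrays. Of the androgen-regulated prostate genes, TMPRSS2 was under the floor on all its probe sets, KLK2 was above it on 1 of 4 probe sets and KLK3 on 1 of 3, whose probes may also match other transcripts. Of the fibroblast markers, which matter here because fibroblasts also transcribe CCN1, CCN2 and ANKRD1, 2 of 7 genes were measured. COL1A2, COL3A1, LUM, PDGFRB and THY1 were under the floor in both arrays, and the summed signal of the list was 1462 in control cells and 1167 in knockdown cells, most of it from COL1A1 (787.2 and 577.0 on its brightest probe set). The other measured COL1A1 probe sets were higher in knockdown cells (50.2 and 95.0, and 153.8 and 174.5). Such sums add every probe set of a list, also those under the floor. Of the endothelial markers 2 of 5 and of the leukocyte markers 2 of 5 were measured, with summed signals of 434.2 and 506.6 and of 174.7 and 219.4, PTPRC being under the floor on all its probe sets. The endothelial cadherin CDH5 was 1.68-fold higher on its only probe set (155.9 in control cells and 261.5 in knockdown cells), while KDR, TEK and VWF were under the floor in both arrays. The part of such markers in the results below was not tested. In a bulk culture, fewer cells with a transcript and less of it per cell cannot be told apart.

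The signal is a linear MAS5 intensity, and the floor of 47.9 is the median signal over both arrays. Because probe sets differ in affinity, a ratio compares a signal only with that of the same probe set in the other array. Signals of different probe sets were ranked to pick the brightest of a gene and added in the marker sums above. The log2 ratio is always knockdown over control. As a technical yardstick, the log2 ratios of the 2 brightest probe sets of a gene were compared, and the SD of their difference was divided by the square root of 2. It was 0.155 in log2 units where the floor was raised to the 75th percentile of signals (387.3, over 3088 genes), and 0.383 for probe sets with both signals between the floor and that percentile (1866 genes). It holds no variation between cultures or arrays.

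TEAD factors bind the hexamer GGAATG, or CATTCC on the other strand, known as the MCAT element. The promoters of 3 targets that hold this element are shown, picked with their ratios known. ANKRD1 was lower in the knockdown array on its only probe set, with both signals under the 75th percentile. CCN2 was close to control (0.65 technical spreads from 0) and AMOTL2 slightly higher (1.31 spreads). A link between the element and the ratios was not tested on these 3 genes. Each is the 250 bases before an annotated RefSeq transcript start (GRCh38.p14), 5′ to 3′ along the gene, with every GGAATG or CATTCC in capitals. CCN2 lies at chr6:131951373-131951622, ANKRD1 at chr10:90921088-90921337 and AMOTL2 at chr3:134374448-134374697, all on the minus strand.
CCN2: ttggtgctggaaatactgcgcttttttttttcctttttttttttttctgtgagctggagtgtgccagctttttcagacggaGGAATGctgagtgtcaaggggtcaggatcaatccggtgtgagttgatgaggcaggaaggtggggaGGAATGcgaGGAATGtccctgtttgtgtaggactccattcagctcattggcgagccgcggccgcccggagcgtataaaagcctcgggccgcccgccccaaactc
ANKRD1: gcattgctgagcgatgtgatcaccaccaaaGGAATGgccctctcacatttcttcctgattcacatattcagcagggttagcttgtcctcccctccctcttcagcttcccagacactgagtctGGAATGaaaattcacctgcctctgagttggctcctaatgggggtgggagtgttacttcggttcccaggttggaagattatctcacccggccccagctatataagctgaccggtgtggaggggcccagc
AMOTL2: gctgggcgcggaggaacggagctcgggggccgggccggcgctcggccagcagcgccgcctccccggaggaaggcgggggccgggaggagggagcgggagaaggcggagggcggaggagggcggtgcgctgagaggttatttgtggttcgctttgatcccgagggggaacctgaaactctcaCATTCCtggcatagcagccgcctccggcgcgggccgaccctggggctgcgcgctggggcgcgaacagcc

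CCN2 held 3 copies of the hexamer, whose first bases lie 169, 104 and 95 bases before the start site. ANKRD1 held 2, at 220 and 128 bases before it, and AMOTL2 held 1 on the opposite strand, at 69 bases. Over windows of 300 bases (250 before and 50 after the start), both strands searched, 14.0% of 35116 RefSeq promoter windows held the hexamer at least once, 1.37% at least 2 times and 0.128% at least 3 times. Of the 10 genes, 7 matched the promoter table, with 10 windows between them, and 6 of the 7 held the hexamer in at least 1 window, against 16.7% of all 27305 genes. The genes were picked as known YAP and TAZ targets or partners, so that share is a description. TEAD1, TEAD4 and CCN1 are not in the table used here. The other 3 matches are short and are shown with 10 bases on each side, YAP1 at chr11:102110275-102110300 and AXL at chr19:41226533-41226558 on the plus strand, and LATS2 at chr13:21061562-21061587 on the minus strand, where the match begins at base 10 after the start.
YAP1: ggagtgtgcaGGAATGtagcaacttg
AXL: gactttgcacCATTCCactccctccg
LATS2: tgacgcccgtGGAATGccaacaatgt

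Both WWTR1 windows lacked these letters, and so did the other window of AMOTL2 (chr3:134375368-134375667) and that of AXL (chr19:41218973-41219272). Thus 6 of the 10 windows of these genes held the hexamer. A match is a string in a promoter, and no binding was measured.

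The transcripts of the pathway's output layer were nearly level between the arrays. Of the 10 genes, each read by its brightest measured probe set, 5 had a log2 ratio above 0 and 5 below, with a median of 0.00, beside 0.01 over all measured genes. ANKRD1 was 1.85-fold lower in the knockdown array. The other 9 lay between -0.20 (YAP1) and 0.23 (CCN1). Those 5 and 5 kept their sides after median centring, quantile normalization and removal of a loess trend.

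**Figure D1:**
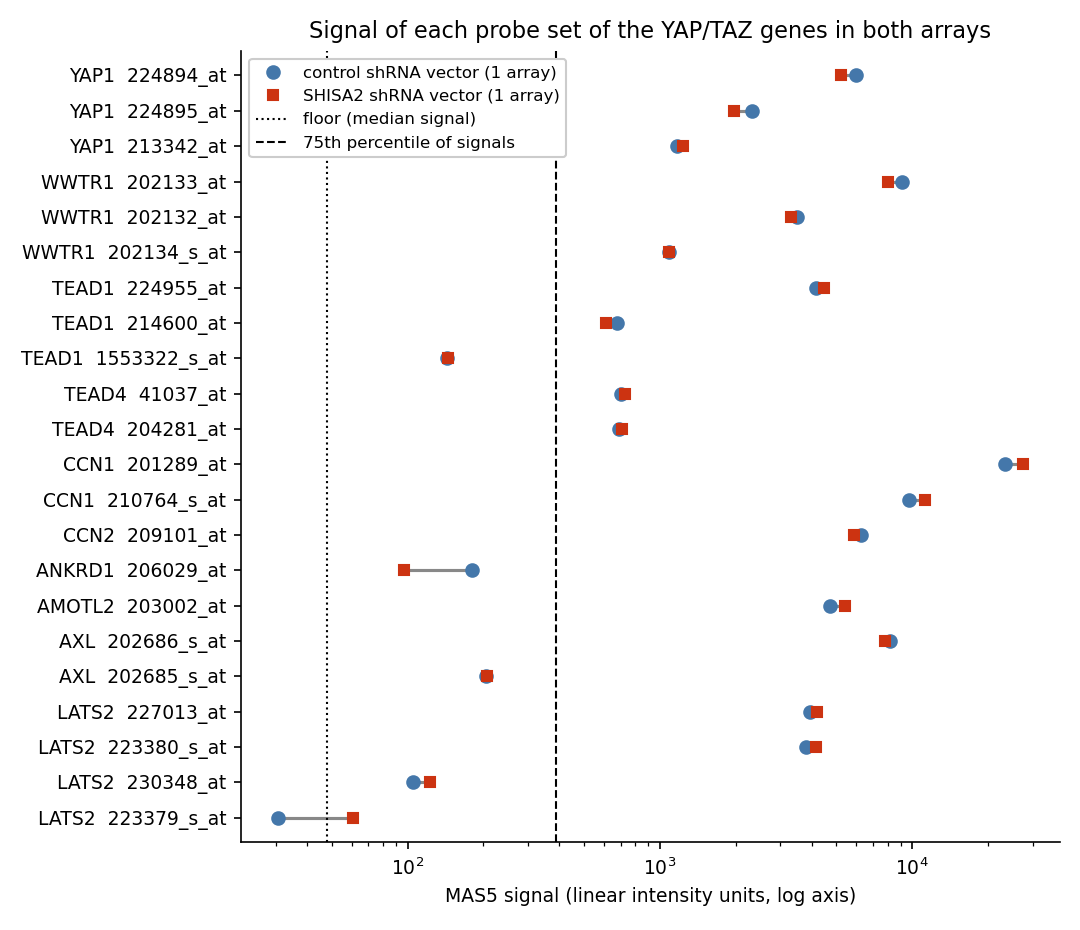
Signal of each of the 22 probe sets in the control array (circles) and the knockdown array (squares), on a log axis, with the floor (47.9, dotted) and the 75th percentile (387.3, dashed). The paired symbols nearly coincide in most lines, and ANKRD1 (179.3 and 97.1) and the dimmest LATS2 probe set (30.7 and 60.7) are the widest pairs.

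YAP1, the first of the coactivators, had 3 probe sets. The brightest (224894_at) read 6012 in control cells and 5234 in knockdown cells, a log2 ratio of -0.20. The second (224895_at) read 2325 and 1975 (log2 ratio -0.24), and the third (213342_at) 1165 and 1239 (0.09). Thus 2 of its probe sets were lower and 1 was higher in the knockdown array, and the lower ones stood 1.29 and 1.52 technical spreads from 0.

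WWTR1 encodes TAZ, the paralogue of YAP. Its brightest probe set (202133_at) read 9134 in control cells and 8025 in knockdown cells (log2 ratio -0.19, or 1.21 spreads). The next (202132_at) read 3480 and 3297 (log2 ratio -0.08), and the dimmest (202134_s_at) was equal at 1087.2 and 1087.3. For both coactivators the ratio was below 0 on the brighter probe sets and at or above 0 on the dimmest, so the probe sets of each gene differed among themselves about as much as they differed from 0.

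The TEAD factors, which carry YAP and TAZ on DNA, were level. TEAD4 had signals of 702.8 and 729.1 on 1 probe set (41037_at) and of 691.3 and 708.5 on the other (204281_at), with log2 ratios of 0.05 and 0.04. TEAD1 read 4152 in control cells and 4464 in knockdown cells on its brightest probe set (224955_at, log2 ratio 0.10), 679.2 and 613.9 on the next (214600_at, -0.15) and 143.8 and 145.3 on the dimmest (1553322_s_at, 0.01). The mean over the 3 TEAD1 probe sets was -0.01, on the other side of 0 from its brightest probe set. It was the only one of the 10 genes whose sign depended on that choice.

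CCN1 and CCN2 encode secreted matricellular proteins (formerly CYR61 and CTGF) and are the most used target genes of YAP and TAZ. CCN1 was slightly higher on both its probe sets, at 27362 in the knockdown against 23353 in the control array (201289_at, log2 ratio 0.23) and at 11213 against 9705 (210764_s_at, 0.21). CCN2 was read by 1 probe set (209101_at), at 5870.0 in the knockdown against 6293 in the control array (log2 ratio -0.10). The pair thus stood on opposite sides of 0, CCN1 by 1.48 and 1.35 spreads and CCN2 by 0.65.

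ANKRD1, a nuclear ankyrin-repeat protein induced by stretch in muscle and by YAP in many cells, showed the widest difference of the 10 genes. Its only probe set (206029_at) read 179.3 in control cells and 97.1 in knockdown cells, a log2 ratio of -0.88 or 54.2% of the control signal. Both signals were above the floor but below the 75th percentile, where the technical spread is wide, and the ratio was 2.31 times that spread (0.383). Of the 3538 genes with both signals in that range, 6.70% were at least 1.5-fold lower and 67 (1.89%) were as low as ANKRD1. No second reading of the gene exists on the array.

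**Figure D2:**
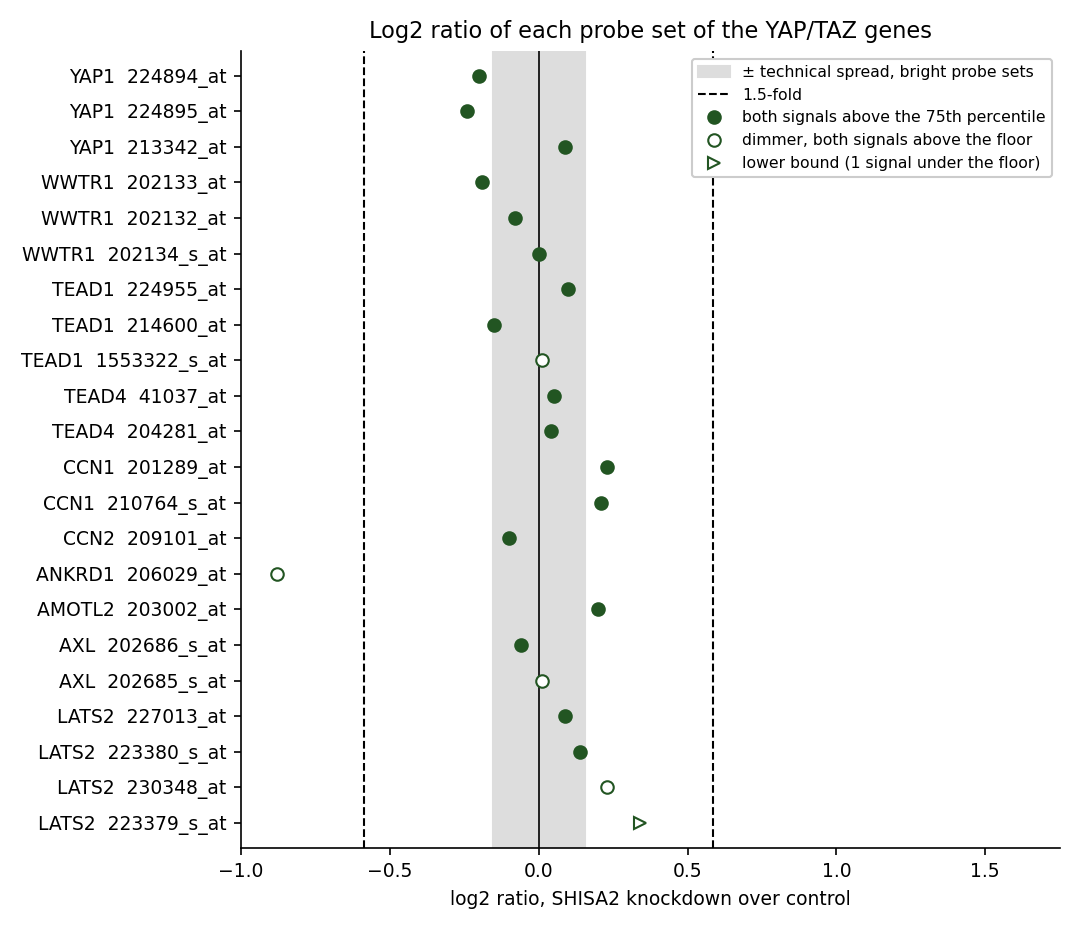
Log2 ratio of knockdown over control for each of the 22 probe sets, by gene, with the technical spread used for bright probe sets (±0.155, grey) and the 1.5-fold lines (dashed). Only ANKRD1 (-0.88) lies outside the 1.5-fold lines, and the 17 bright probe sets lie between -0.24 and 0.23.

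The 2 feedback genes were both under 1.5-fold. AMOTL2, a junctional scaffold that binds YAP and TAZ, read 4721 in control cells and 5431 in knockdown cells (203002_at, log2 ratio 0.20, 1.31 spreads). LATS2, a kinase that phosphorylates YAP and TAZ, had log2 ratios above 0 on the 3 probe sets with both signals above the floor. Its 4 probe sets read 3933 and 4179 (227013_at, log2 ratio 0.09), 3781 and 4174 (223380_s_at, 0.14), 104.7 and 123.0 (230348_at, 0.23) and 30.7 and 60.7 (223379_s_at). The last counts as measured through its knockdown signal alone, so its ratio is a lower bound (at least 1.27-fold) whose sign the floor fixed. The other 3 stood at most 0.92 spreads from 0.

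AXL, a receptor tyrosine kinase of the TAM family that binds the ligand GAS6 and is induced by YAP, was level. Its bright probe set (202686_s_at) read 8141 in control cells and 7802 in knockdown cells (log2 ratio -0.06), and its dim one (202685_s_at) 205.4 and 207.2 (0.01). Both are of the kind that can share probes with other transcripts, so AXL has no value where those are left out.

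Against a size threshold of 1.5-fold, 0 of the 10 genes were higher and 1, ANKRD1, was lower. Of the 12931 measured genes, 8.78% were at least 1.5-fold apart, 5.01% higher and 3.77% lower, so 1 gene in 10 is near the background. The split of those calls depends on the scaling: the higher side held 57.1% of them in the deposited values, but 52.8% with medians centred, 47.4% with quantiles equalised and 46.1% with a loess trend removed. None of the 10 reached 2-fold, beside 1.48% of all measured genes. Among the 7650 genes with both signals above the 75th percentile, 2.10% were at least 1.5-fold apart and 11.7% at least 25% apart (the higher signal at least 125% of the lower), and 0 of the 9 genes other than ANKRD1, all of them in that class, were that far apart. Of the 17 bright probe sets, 11 lay within 1 technical spread of 0 and 0 beyond 2. Of the 7 genes with several probe sets that had both signals above the floor, 3 had the same sign on all of those (TEAD4, CCN1 and LATS2), beside 47.0% of the 5767 genes with several such probe sets.

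**Figure D3:**
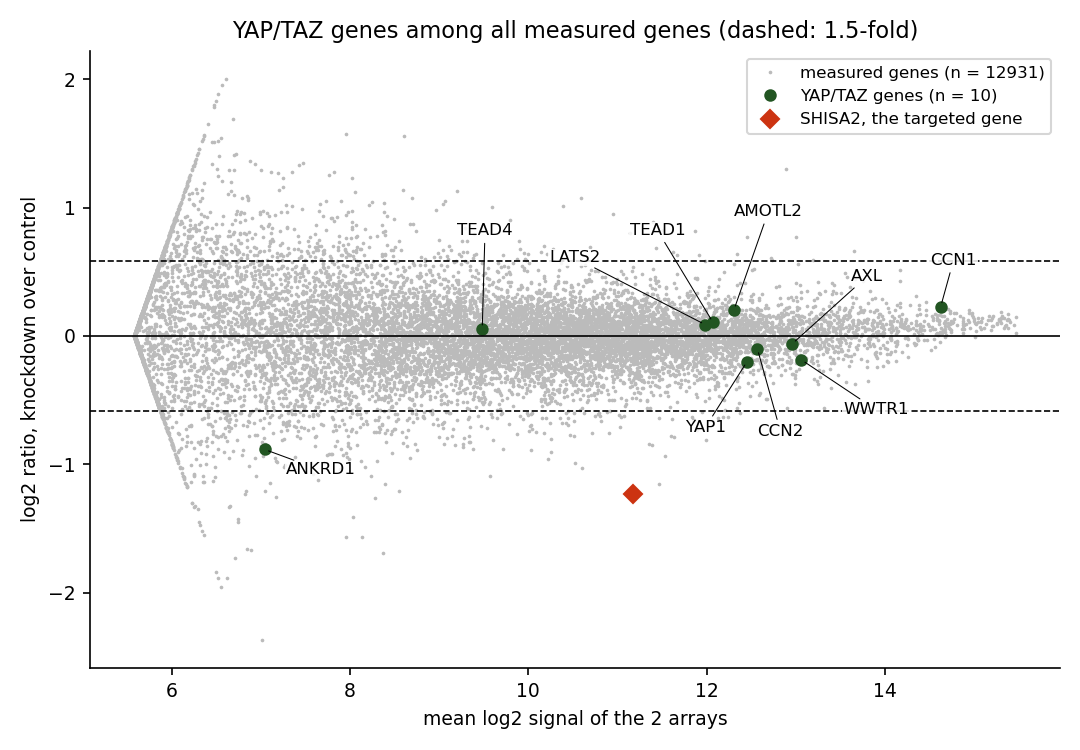
Log2 ratio of knockdown over control against the mean log2 signal of both arrays for the 12931 measured genes (grey), the 10 YAP/TAZ genes (green) and SHISA2 (red diamond), with dashed lines at 1.5-fold. The scatter of all genes widens toward the floor, where ANKRD1 lies (-0.88), while the other 9 genes lie between -0.20 and 0.23 and SHISA2 at -1.23.

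The other genes of the pathway were read from 6 lists, by the same rule. Among the Hippo kinases and scaffolds, which act upstream of YAP and TAZ, 15 of 17 were measured, 7 above 0 and 8 below, with a median log2 ratio of -0.03 and none at 1.5-fold. The 4 widest were SAV1, the adaptor of the MST kinases (-0.41 on its brightest probe set, and from -0.36 to 0.09 on the other 4), MAP4K4, a kinase that phosphorylates LATS (0.32), the kinase TAOK3 (0.27) and the angiomotin relative AMOTL1 (-0.27). MAP4K4 was higher on all 5 of its probe sets, at log2 ratios from 0.23 to 0.32, with signals of 2499 in control cells and 3111 in knockdown cells on the brightest. AMOTL1 was 1.80-fold lower on a dim probe set (105.8 and 58.7) and at least 2.77-fold higher on another (39.5 and 132.7), so its probe sets opposed each other. Other genes of the list also passed 1.5-fold on dim probe sets, though not on their brightest. Among them, TAOK2 was 2.13-fold (56.1 and 119.7) and 2.61-fold higher (51.4 and 134.4) and STK4 2.57-fold higher (62.8 and 161.6). WWC1 was at least 1.53-fold lower (73.4 and 31.4, the latter under the floor). LATS1, the partner kinase of LATS2, read 2339 and 2254 (-0.05).

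Of the polarity and cadherin proteins that feed into Hippo signalling, all 10 were measured, 3 above 0 and 7 below, with a median of -0.04. CRB3, an apical polarity protein, was 1.59-fold higher at signals of 195.1 in control cells and 309.8 in knockdown cells, in the dim range and on 1 probe set. The next widest were its binding partner PALS1 (-0.26, and -0.05 on its other probe set), LLGL1 (0.20) and PARD3 (0.14). The remaining TEAD and VGLL factors, the latter competing with YAP for TEAD, gave 5 measured of 6 with a median of -0.08. TEAD3 read 196.8 and 225.3 (0.20), VGLL3 227.6 and 203.4 (-0.16), VGLL4 1239 and 1159 (-0.10), and VGLL2 had a log2 ratio of at least 0.32, its control signal being under the floor. None of the 5 was past 1.5-fold, though the value of VGLL2 is only a bound.

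Of 19 further YAP and TAZ target genes, 17 had a probe set of their own and 15 were measured, 7 above 0 and 8 below, with a median of -0.04. That median, like the median of the 10 genes, was close to the 0.01 of all measured genes. ARHGEF17, a guanine nucleotide exchange factor, was at least 2.18-fold higher (43.2 in the control, under the floor, and 104.3 in the knockdown array). No other gene of the list passed 1.5-fold on its brightest measured probe set. Dimmer probe sets did for ASAP1 (78.9 and 192.5, 2.44-fold higher), RBMS3 (86.9 and 137.5, 1.58-fold) and THBS1 (78.4 and 119.6, 1.53-fold). A dim probe set of IGFBP3 was at least 1.99-fold lower (95.3 and 22.9, the latter under the floor). TGFB2, a TGF-beta ligand, was at least 1.30-fold lower, from 62.4 to the floor. FJX1, a homologue of a Golgi kinase that acts on Fat cadherins, read 332.4 and 413.3 (0.31), and the RNA-binding protein RBMS3 -0.30 on its brightest probe set and from 0.07 to 0.66 on the other 3. Of the other CCN proteins, relatives of CCN1 and CCN2, 1 of 4 was measured: CCN3, at least 1.13-fold higher with a control signal under the floor.

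Of the TAM receptors related to AXL and the ligands of the family, 1 of 4 was past 1.5-fold. Over all measured genes that share was 8.78%, and it was 2.10% where both signals were above the 75th percentile. The ligand PROS1, or protein S, read 2561 in control cells and 1670.0 in knockdown cells, 1.53-fold lower (log2 ratio -0.62) on 1 probe set with both signals above the 75th percentile. The ligand GAS6 read 237.8 and 159.3 (log2 ratio -0.58, or 1.49-fold) on its brighter probe set, in the dim range where the technical spread is 0.383, and was at least 1.80-fold lower on the other, from 86.3 to under the floor. Of the sister receptors, MERTK read 1026 in control cells and 916.3 in knockdown cells (-0.16, and -0.39 on its other probe set) and TYRO3 167.4 and 170.4 (0.03). TYRO3 was below 0 after quantile normalization and after loess, where all 4 genes were below 0, and the median of the 4 was -0.37 as deposited and under both. The list was picked for AXL, and it holds 4 genes.

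**Figure D4:**
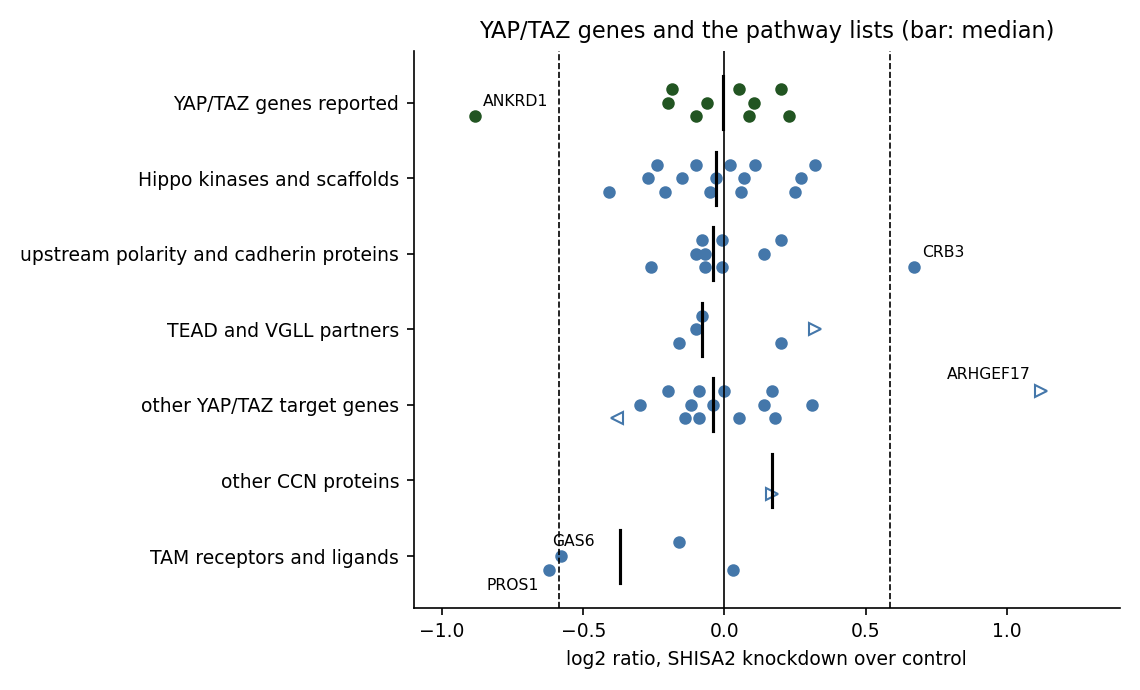
Log2 ratio of each measured gene among the 10 YAP/TAZ genes (green) and in 6 pathway lists (blue), with the list median as a bar and dashed lines at 1.5-fold; open triangles are bounds, pointing away from 0, where 1 signal was at or under the floor. The medians lie between -0.08 and 0.00 except for the other CCN proteins (1 gene, 0.17) and the TAM receptors and ligands (4 genes, -0.37), and ANKRD1, CRB3, ARHGEF17 and PROS1 are the only genes outside the 1.5-fold lines.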

How the data were processed

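Total RNA from control and SHISA2 knockdown PC-3 cells was labelled with biotin from 250 ng and hybridised to 1 array each, per the labels. The deposited values are linear probe-set intensities. The authors ran MAS5, as the submitters' processing notes list, in a version not given in the sources used here. In these intensities the mean after trimming 2% at each end was 499.9 in both arrays, and no further scaling was applied. Of 54675 probe sets, 62 controls were left out and 41097 had exactly 1 gene symbol (platform annotation, symbols looked up by gene identifier in RefSeq GRCh38.p14, where 41043 matched). Signals under 47.9 were raised to it, and log2 ratios were taken. Where 1 signal was at or under the floor, the ratio is a bound. Probe sets ending in _s_at or _x_at can share probes with other transcripts. Depth does not apply to arrays, and their number limits the precision.

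The rule for named genes was every gene of the 10, SHISA2, and up to 4 measured genes per pathway list with the largest ratio in size. LATS1, the cell type markers and some genes with a dimmer probe set past 1.5-fold were named besides. No gene was named for a similar pattern, since 2 arrays give 1 ratio per gene. The 10 genes and the lists were chosen with earlier results of these data known. Computations used Python 3.11.15, numpy 2.4.6 and pandas 2.3.3 and were tested on simulated data. Alternatives were 3 scalings, 2 floors, a pseudocount of 1, probe-set means, leaving out _x_at and _s_at probe sets, and thresholds of 2-fold and of 25%.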

Additional observations from a re-analysis of the deposited data

How the results depend on the processing

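The ratios of the 10 genes and of SHISA2 moved by less than 0.286, the technical spread over all measured genes with several probe sets, in all 86 combinations of gene and alternative that gave a value. Many of these could hardly move: the other floors, the pseudocount and leaving out _x_at and _s_at probe sets returned the same rounded ratios. The limit of 0.286 is also wider than the ratios of the 9 genes other than ANKRD1 (-0.20 to 0.23). It therefore passes a change of sign, as for TEAD1 with probe-set means (0.10 and -0.01). ANKRD1 was not measured with the floor raised to 387.3, and AXL and its probe sets are absent without _x_at and _s_at probe sets. The median of the 10 genes lay between -0.03 (median centring) and 0.00. Where ANKRD1 or AXL was absent, the median of the remaining 9 was 0.05. The count of these genes at least 1.5-fold apart, 1 as reported, was 0 with the floor at 387.3, where ANKRD1 is not measured, and 0 at 2-fold. It was 1 under every other alternative. The count over all genes, 1135 as reported, was 192 at 2-fold, 3247 at a threshold of 25%, 4574 with the floor at 11.3, 170 with the floor at 387.3 and 1853 with no floor and a pseudocount of 1. No paired analysis was possible because each group has 1 array. Leaving out an array was likewise not possible. Signals near the floor limit ANKRD1, CRB3 and ARHGEF17, whose ratios rest on 1 dim probe set each.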

Other observations

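The TEAD hexamer was also read across all genes. Of the measured genes in the promoter table, 1589 held GGAATG or CATTCC in at least 1 window and 8891 in none. Their median log2 ratio was 0.01 in both classes (SD 0.34 and 0.32 across genes, which are not replicates), and 9.0% and 7.90% were at least 1.5-fold apart. The 138 genes with at least 2 copies in 1 window, CCN2 and ANKRD1 among them, had a median of 0.00 and an SD of 0.37, and 13.0% of them were at least 1.5-fold apart. The 11 genes with at least 3 copies, CCN2 among them, had a median of 0.04. These are descriptions of 1 pair of arrays, and the signal level of the classes was not matched.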
